A study of Sus scrofa with 6 samples.

Results

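Branched-chain amino acid breakdown in pig fat was followed here through 10 genes: BCAT2, BCKDHA, BCKDHB, DBT, BCKDK, PPM1K, IVD, MCCC1, MCCC2 and HIBADH. They were taken by pig gene symbol from the 22844 rows of each library's table, of which 14750 had a symbol, and each symbol matched 1 row. The RNA was total RNA of subcutaneous fat, and the pigs were Duroc × Landrace × Yorkshire hybrids. Resveratrol libraries 1, 2 and 3 came from a diet supplemented with 400 mg/kg resveratrol, a plant polyphenol, and control libraries 1, 2 and 3 from the control diet. The labels used here do not say that the libraries came from separate animals, nor how long the diet lasted, so p-values measure only how these samples spread, and that spread may be technical.

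Leucine, isoleucine and valine are first transaminated to branched-chain keto acids, and these are then decarboxylated by the mitochondrial branched-chain keto acid dehydrogenase complex, the committed step of the pathway. A kinase inactivates the complex by phosphorylating its decarboxylase, and a mitochondrial phosphatase reverses this. The products enter separate routes for leucine, isoleucine and valine that end in acetyl-CoA, acetoacetate or propionyl-CoA. Adipocytes run this pathway actively, and its carbon can be used for fatty acid synthesis.

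None of the 10 genes passed an adjusted p of 0.05 between the diets, and neither did any other row of the tables (0% of 14908 rows tested, edgeR's quasi-likelihood test with Benjamini-Hochberg adjustment). All 10 had a log2 fold change above 0 for resveratrol over control on the counts, between 0.061 for MCCC2 and 0.48 for IVD, where 48.8% of all tested rows lay above 0. With limma on log2(TPM + 0.5), 9 of the 10 were above 0, all but MCCC2, against 37.6% of all tested rows. The median of the 10 in edgeR was 0.17, against -0.0075 over all tested rows, and with limma it was 0.12 against -0.079. These counts rest in part on single libraries. Without control 1 the median of the 10 was 0.039, with 7 of 10 above 0 (48.9% of all rows in that fit), while without control 3 it was 0.43 and without resveratrol 1 it was 0.34. IVD had an unadjusted p under 0.05, which makes 1 of 10, against 6.53% of all rows in either direction and 2.21% in the higher direction. DESeq2 on the same counts called 40 rows (0.274% of those with an adjusted p) and 0 of the 10 genes.

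**Figure D1:**
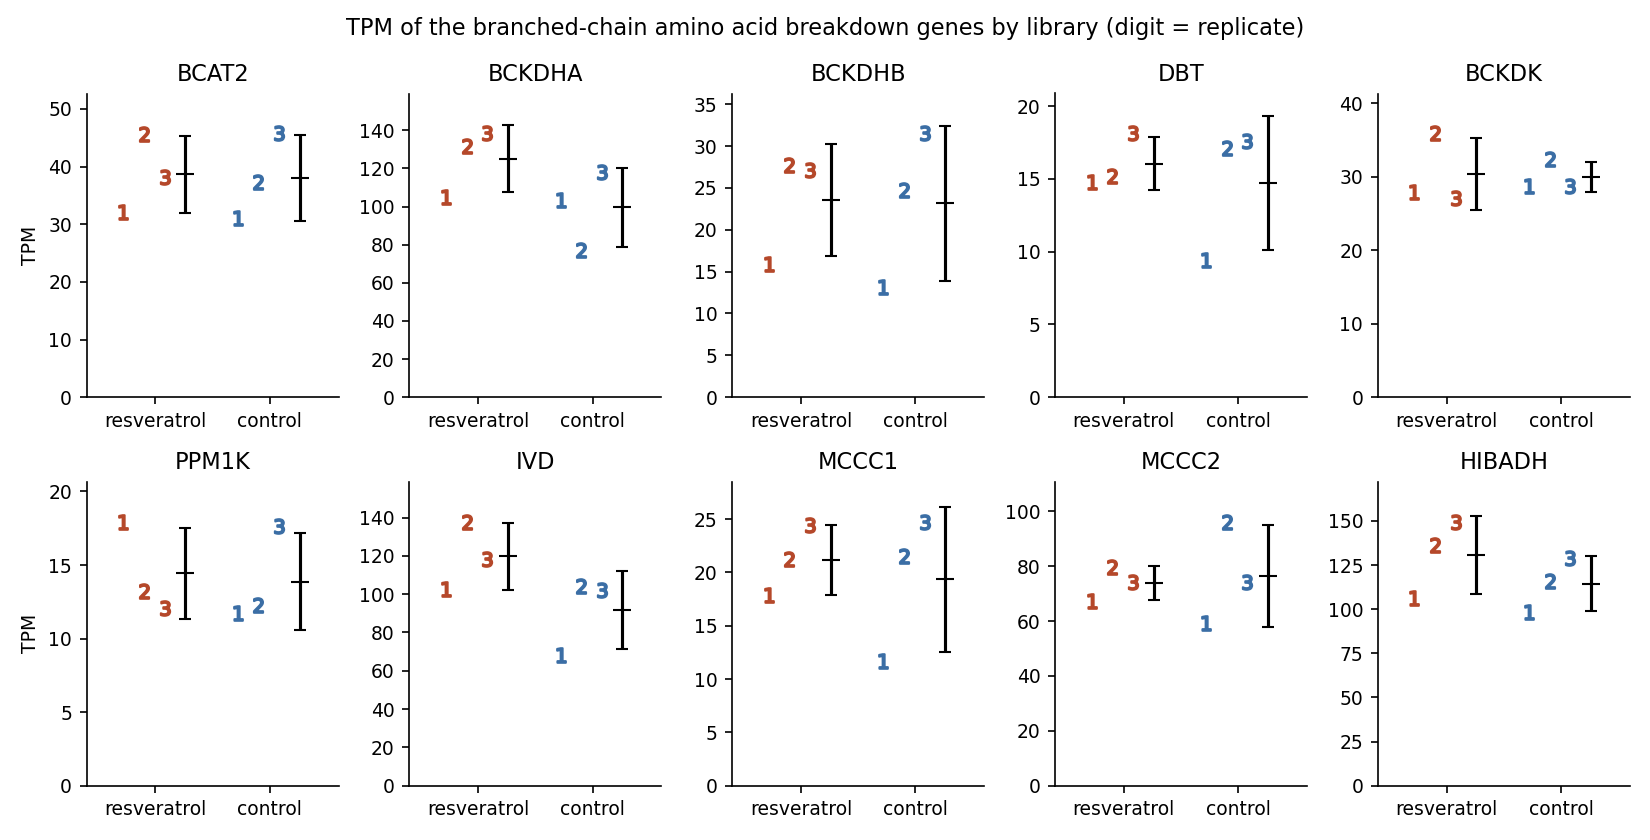
TPM (y axis) of each of the 10 genes in the resveratrol and control libraries (x axis); digits are replicate numbers, and the black bar is the mean ± SD of 3 libraries. The groups overlap in every panel, and control 1 lies lowest in 8 of 10 panels.

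The tables held between 16251536 reads in control 2 and 37943877 reads in resveratrol 2. All 10 genes passed the filter of a mean of at least 0.5 TPM (a transcript level scaled for length and library total). Their counts ran from 304 reads for PPM1K in control 2 (exact 95% Poisson interval 271 to 340) to 11885 for IVD in resveratrol 2 (11672 to 12101), intervals that cover counting error only. The skeletal muscle markers, of which 4 of 9 matched a row, summed to 0.572 to 1.77 TPM in resveratrol and 1.05 to 2.13 TPM in control, and TNNT3 was listed at 0 in resveratrol 3 and control 3. The 8 adipocyte markers, led by FABP4 and ADIRF, summed to 28754, 29420 and 35018 TPM in resveratrol 1, 2 and 3 and to 24209.5, 29283 and 29579.7 TPM in control 1, 2 and 3. Their log2 fold changes were above 0 in 8 of 8, with a median of 0.18, near the 0.17 of the 10 genes, and in 8 of 8 without control 1, with a median of 0.16. None had an unadjusted p under 0.05 in edgeR, and their part in the values of the 10 genes was not tested.

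By mean TPM over the 6 libraries, a scale that allows for length, the 10 genes ranged from 14.2 to 123 TPM. HIBADH (123 ± 19.3 TPM, SD, n = 6), BCKDHA (112 ± 22.2) and IVD (106 ± 23.0) stood at the top. HIBADH was above BCKDHA in 5 of 6 libraries and BCKDHA above IVD in 4 of 6, so the order among these was not fixed. MCCC2 came next (75.2 ± 12.5 TPM), below IVD in 6 of 6 libraries, and BCAT2 (38.3 ± 6.35 TPM) was below MCCC2 in 6 of 6. BCKDK (30.2 ± 3.33), BCKDHB (23.4 ± 7.23), MCCC1 (20.3 ± 4.87), DBT (15.4 ± 3.21) and PPM1K (14.2 ± 2.87) followed. DBT and PPM1K were each the higher one in 3 of 6 libraries. Among all tested rows the 10 genes ranked between percentile 63.8 (PPM1K) and percentile 94.2 (HIBADH). BCKDK varied least over the libraries (coefficient of variation 11.1%) and BCKDHB most (30.9%).

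The pathway starts with BCAT2 (ENSSSCG00000003139.3), the mitochondrial aminotransferase that makes the keto acids. It measured 32.1, 45.6 and 38.2 TPM in resveratrol 1, 2 and 3 and 31.0, 37.4 and 45.8 TPM in control 1, 2 and 3. The groups spanned nearly the same range, with library 1 lowest in each. The log2 fold change was 0.10 (SE 0.21), with a 95% interval of -0.36 to 0.56. It was 0.00098 without resveratrol 2, 0.0026 without control 2, 0.0092 without control 1 and 0.32 without control 3. BCAT1, the cytosolic aminotransferase, was lower than BCAT2 in every library, averaging 7.41 ± 0.400 TPM in resveratrol and 8.59 ± 2.13 TPM in control, with a log2 fold change of -0.11 (SE 0.18).

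The decarboxylase of the dehydrogenase complex is built from the alpha subunit BCKDHA, which carries the phosphorylation sites, and the beta subunit BCKDHB. BCKDHA (ENSSSCG00000028794.2) measured 105, 132 and 139 TPM in resveratrol 1, 2 and 3 and 104, 77.3 and 118 TPM in control 1, 2 and 3. Resveratrol 2 and 3 were above every control library, while resveratrol 1 lay between control 1 and control 3. Its log2 fold change was 0.39 (SE 0.24, 95% interval -0.16 to 0.93), and edgeR's Benjamini-Hochberg adjusted p was 0.742. Without control 2, which held the lowest value, its log2 fold change was 0.17.

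BCKDHB (ENSSSCG00000004465.3) measured 15.9, 27.8 and 27.1 TPM in resveratrol 1, 2 and 3 and 13.2, 24.8 and 31.6 TPM in control 1, 2 and 3. Library 1 was the low one in each diet, and the other 4 libraries lay within 24.8 to 31.6 TPM. The log2 fold change was 0.12 (SE 0.33), the widest error of the 10 genes, and its 95% interval ran from -0.63 to 0.87. DBT (ENSSSCG00000006866.3), the acyltransferase core of the complex, measured 14.8, 15.2 and 18.2 TPM in resveratrol 1, 2 and 3 and 9.41, 17.2 and 17.6 TPM in control 1, 2 and 3. Control 1 stood alone below the other 5 libraries. A log2 fold change of 0.25 (SE 0.23) became 0.035 without control 1. DLD, the dihydrolipoamide dehydrogenase that this complex shares with other mitochondrial complexes, had a log2 fold change of -0.011 (SE 0.19), which was 0.040 when libraries were scaled by their totals alone.

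The complex is switched by a kinase and a phosphatase, and the log2 fold changes of both had intervals that spanned 0. BCKDK (ENSSSCG00000007763.3), the inactivating kinase, measured 28.0, 35.9 and 27.2 TPM in resveratrol 1, 2 and 3 and 28.8, 32.3 and 28.8 TPM in control 1, 2 and 3. Both the highest and the lowest library belonged to resveratrol. Its log2 fold change was 0.10 (SE 0.16), and the 95% interval of -0.24 to 0.45 was the narrowest of the 10. PPM1K (ENSSSCG00000038867.1), the phosphatase that reactivates the complex, measured 18.0, 13.3 and 12.1 TPM in resveratrol 1, 2 and 3 and 11.7, 12.3 and 17.6 TPM in control 1, 2 and 3. A single library was high in each diet, resveratrol 1 and control 3, and the other 4 lay within 11.7 to 13.3 TPM. Its log2 fold change was 0.12 (SE 0.23), with a 95% interval of -0.39 to 0.63.

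IVD (ENSSSCG00000004774.3), the isovaleryl-CoA dehydrogenase of the leucine route, showed the highest log2 fold change of the 10. It measured 102.6, 137.9 and 118.6 TPM in resveratrol 1, 2 and 3 and 68.1, 104.3 and 102.4 TPM in control 1, 2 and 3. Resveratrol 2 and 3 were above every control library, and resveratrol 1 lay between control 3 and control 2, so that the groups overlapped narrowly. The log2 fold change was 0.48 (SE 0.20), a 1.40-fold difference with a 95% interval of 1.02-fold to 1.91-fold. Its unadjusted p was 0.0388 in edgeR, and the Benjamini-Hochberg adjusted p over all tested rows was 0.733. The log2 fold change lay between 0.34 (without control 1) and 0.63 (without control 3) when each library was left out in turn, and the unadjusted p in edgeR was over 0.05 without control 1 (0.142), control 2 (0.0559), resveratrol 2 (0.132) or resveratrol 3 (0.101).

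The next enzyme of leucine breakdown is the biotin enzyme methylcrotonoyl-CoA carboxylase, with the alpha subunit MCCC1, which carries biotin, and the beta subunit MCCC2. MCCC1 (ENSSSCG00000025942.2) measured 17.9, 21.2 and 24.4 TPM in resveratrol 1, 2 and 3 and 11.7, 21.6 and 24.8 TPM in control 1, 2 and 3. The libraries numbered 2 and 3 were close between the diets, and control 1 was the low one. A log2 fold change of 0.23 (SE 0.26) became -0.0064 without control 1. MCCC2 (ENSSSCG00000016971.3) measured 67.5, 79.8 and 74.2 TPM in resveratrol 1, 2 and 3 and 59.2, 96.2 and 74.1 TPM in control 1, 2 and 3, so the control libraries held both extremes. Its mean was lower in resveratrol by TPM (73.8 ± 6.19 against 76.5 ± 18.6 TPM in control, SD, n = 3 each), while the counts gave a log2 fold change of 0.061 (SE 0.18).

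HIBADH (ENSSSCG00000016695.3), the 3-hydroxyisobutyrate dehydrogenase of the valine route, measured 106.5, 136.6 and 149.6 TPM in resveratrol 1, 2 and 3 and 98.1, 116.2 and 129.1 TPM in control 1, 2 and 3. Resveratrol 2 and 3 were above all control libraries, and resveratrol 1 was above control 1 alone. The log2 fold change was 0.30 (SE 0.19, 95% interval -0.12 to 0.72), with a Benjamini-Hochberg adjusted p of 0.742 in edgeR. Over the 10 genes, adjusted p in edgeR ran from 0.733 to 0.949. In none of the 10 were all TPM values of resveratrol above or below all those of control, while 12.3% of all tested rows met this in either direction.

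**Figure D2:**
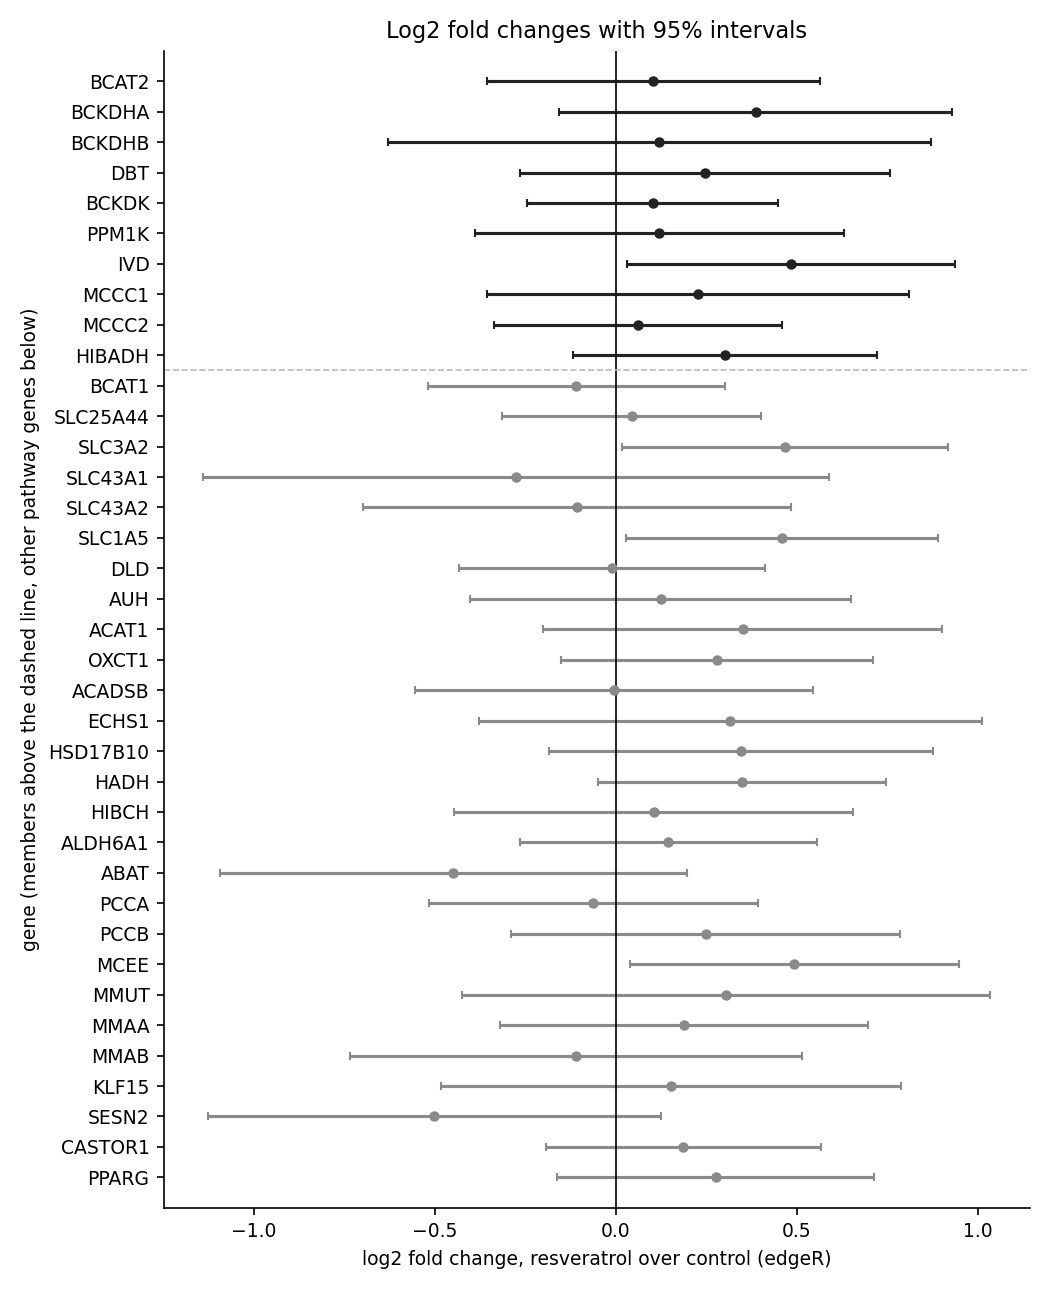
Log2 fold change of resveratrol over control (x axis, edgeR) with its 95% interval for the 10 genes (above the dashed line) and 27 other pathway genes tested (below it). Among the 10 the interval of IVD alone lies above 0, and those of SLC3A2, SLC1A5 and MCEE do so among the other genes, all without adjustment for the number of rows tested.

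The balance of partner genes was compared within libraries, where scaling between libraries plays no part. The kinase BCKDK was above the phosphatase PPM1K by a TPM ratio of 1.56, 2.71 and 2.24 in resveratrol 1, 2 and 3 and of 2.46, 2.64 and 1.63 in control 1, 2 and 3. The lowest ratios, in resveratrol 1 and control 3, are those of the libraries with high PPM1K. BCKDHA exceeded BCKDHB by 6.62, 4.75 and 5.11 in resveratrol 1, 2 and 3 and by 7.84, 3.12 and 3.74 in control 1, 2 and 3, with library 1 highest in each diet. The ratio of MCCC1 to MCCC2 was 0.265, 0.266 and 0.329 in resveratrol 1, 2 and 3 and 0.198, 0.224 and 0.334 in control 1, 2 and 3, so the biotin-carrying subunit was the lower transcript in all 6 libraries. BCAT2 exceeded BCAT1 by 4.12, 6.13 and 5.45 in resveratrol 1, 2 and 3 and by 3.55, 3.51 and 7.17 in control 1, 2 and 3. The groups overlapped in all 4 ratios. Exact two-sided permutation tests of the log2 ratios gave p of 0.8, 0.6, 0.5 and 0.7 in the order above, and 0.8 for each after Benjamini-Hochberg adjustment over the 4. With 3 libraries against 3 the smallest p this test allows is 0.1.

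**Figure D3:**
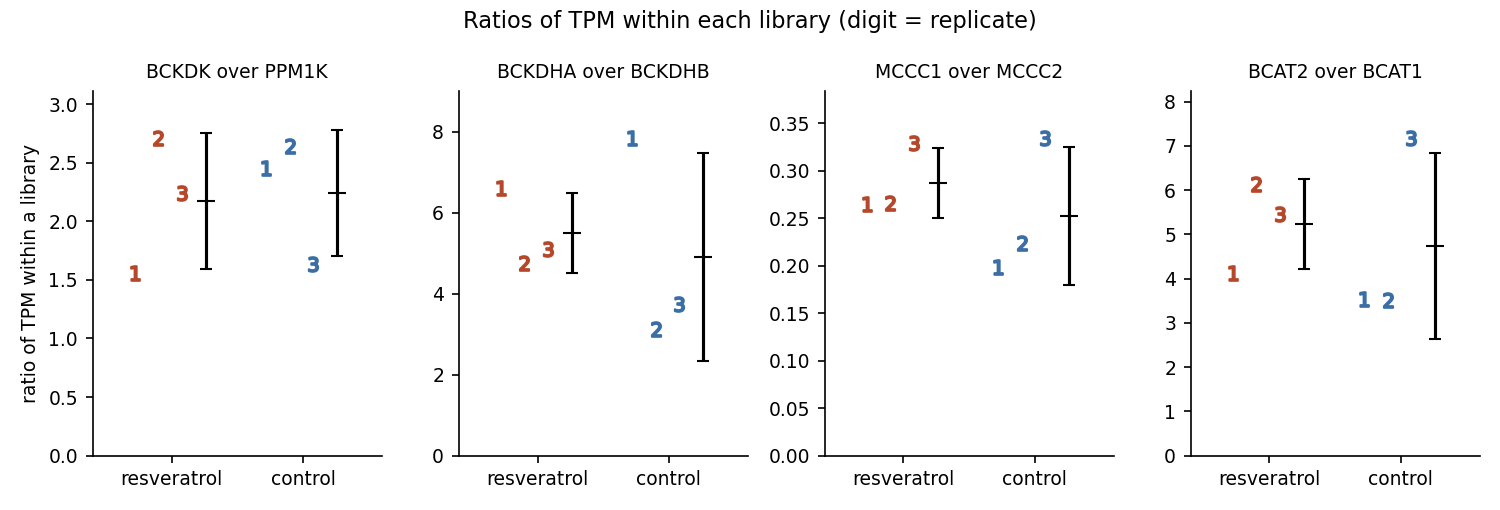
Ratio of TPM within a library (y axis) for 4 pairs of genes in the resveratrol and control libraries (x axis); digits are replicate numbers and bars the mean ± SD of 3 libraries. Ratios of the diets overlap in all 4 panels, and BCKDHA over BCKDHB is highest in library 1 of each diet.

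The 10 genes also differed between libraries of the same diet. Their TPM summed to 508, 645 and 628 in resveratrol 1, 2 and 3 and to 435, 539 and 589.7 in control 1, 2 and 3. Control 1 was the lowest of the 6 libraries in 8 of 10 genes by TPM (22.1% of all tested rows) and in 5 of 10 on the TMM-scaled counts used in the test (15.8% of all tested rows). Resveratrol 1 was the lowest resveratrol library in 8 of 10 by TPM (23.3% of all tested rows) and in 9 of 10 on the scaled counts (30.4%). PPM1K went against this on both scales, with its highest resveratrol value in resveratrol 1. On the scaled counts, genes above their own mean of the 6 libraries numbered 1, 9 and 8 of 10 in resveratrol 1, 2 and 3 and 0, 1 and 9 of 10 in control 1, 2 and 3. The labels do not say that equal replicate numbers share a litter, pen or day.

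**Figure D4:**
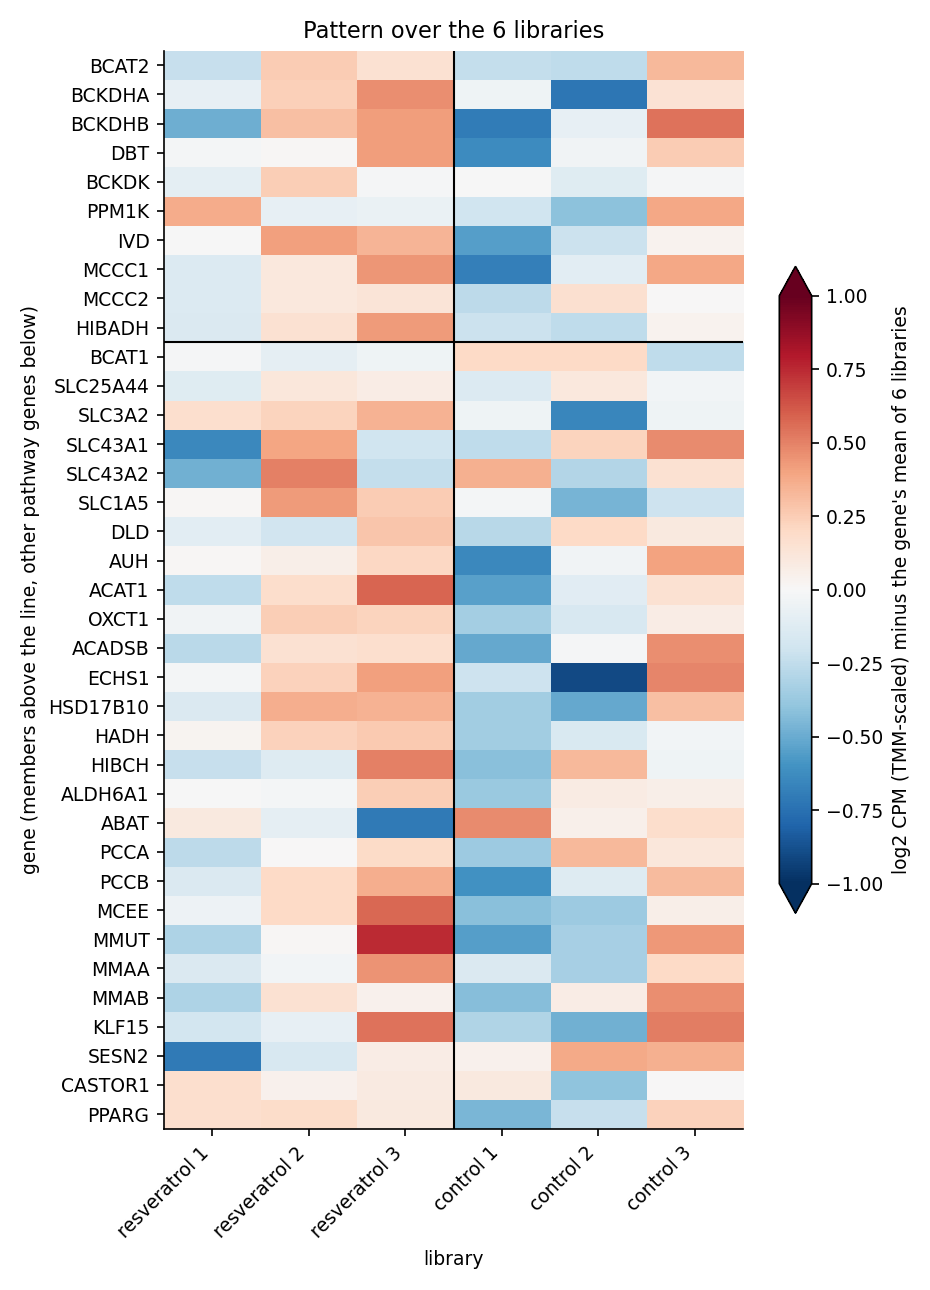
TMM-scaled log2 CPM of each gene minus its mean over the 6 libraries (colour) for the 10 genes (above the line) and 27 other pathway genes tested (below it), by library (x axis). Of the 10 genes, 9 are above their mean in resveratrol 2, 8 in resveratrol 3 and 9 in control 3, and all 10 are below it in control 1.

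Other cell type markers moved between the same libraries. The 5 tendon and cartilage markers summed to 3.98, 5.13 and 3.18 TPM in resveratrol 1, 2 and 3. In control 1, 2 and 3 they summed to 101.5, 7.50 and 24.7 TPM. The highest sum was in control 1, where all 10 genes were below their means on the scaled counts. In control 3, with the next highest sum, 9 of 10 genes were above their means. In control 2 and in resveratrol 1, with lower sums, 9 of 10 were below. In resveratrol 2 and 3, also with low sums (5.13 and 3.18 TPM), 9 and 8 of 10 were above. All 5 tendon and cartilage markers had log2 fold changes below 0. In edgeR 4 of them had an unadjusted p under 0.05, against 6.53% of all tested rows in either direction. DESeq2 called 1 of the 5, COL2A1, with a Benjamini-Hochberg adjusted p of 0.00151, where edgeR gave 0.721. The 6 stromal markers summed to 4045 to 5636 TPM in resveratrol and 4414 to 7599 TPM in control, again highest in control 1. COL1A1 (3536 TPM) and DCN (721 TPM) were highest in control 1, while LUM (55.3 TPM) and DPT (38.6 TPM) were lowest there. PDGFRA was highest in control 2 and COL3A1 in resveratrol 2. The adipocyte sum was lowest in control 1. By TPM, control 1 was the lowest library in 5 of 8 adipocyte markers (22.1% of all tested rows). On the TMM-scaled counts it was lowest in 2 of 8 (15.8% of all tested rows). PLIN4 was highest in control 1, at 1036 TPM. The 8 macrophage markers summed to 740, 527 and 497 TPM in resveratrol 1, 2 and 3 and to 481, 438 and 403 TPM in control 1, 2 and 3, higher in every resveratrol library. Their log2 fold changes were above 0 in 8 of 8, with a median of 0.47. In edgeR 4 had an unadjusted p under 0.05, against 2.21% of all tested rows in the higher direction. Without resveratrol 1, the library with the highest sum, the median was 0.27, with 7 of 8 above 0. By TPM the groups did not overlap in 2 of 8, against 12.3% of all tested rows in either direction. The 4 of 6 endothelial markers that matched a row summed to 189 to 207 TPM in resveratrol and 193 to 259 TPM in control. The part of these other cell types in the values of the 10 genes was not tested, and in whole tissue fewer cells of a type and less RNA per cell cannot be told apart.

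**Figure D5:**
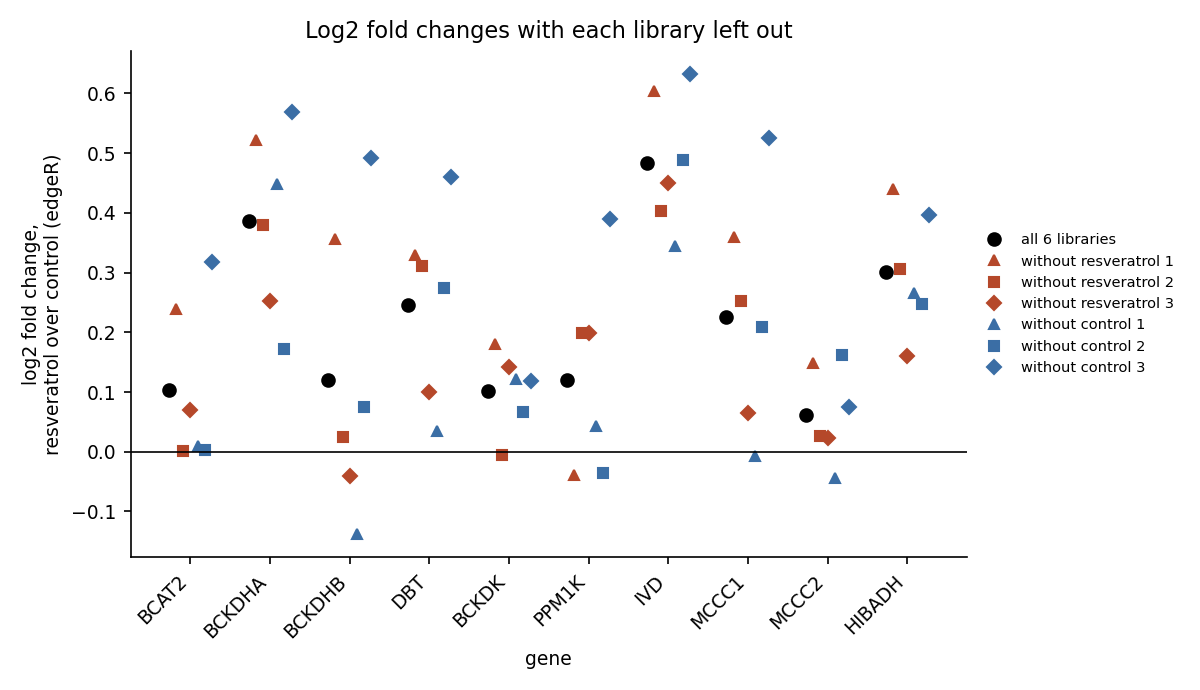
Log2 fold change of resveratrol over control in edgeR (y axis) for each of the 10 genes (x axis) with all 6 libraries (black) and with each library left out. BCAT2, BCKDHA, DBT, IVD and HIBADH stay above 0 in all 7 fits, and for 7 of the 10 genes the value without control 3 is the highest.

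The rest of the pathway was read from 32 further symbols, with MMUT listed also under its older symbol MUT, which matched no row. Of the 32 symbols, 30 matched a row and 27 passed the filter. Of these 27, 18 had an edgeR log2 fold change above 0 and 9 below 0, with a median of 0.15, where 48.8% of all tested rows lay above 0. Without control 1, 16 were above 0 (48.9% of all rows in that fit), with a median of 0.042. With limma on log2(TPM + 0.5), 16 were above 0 (37.6% of all tested rows), with a median of 0.090. Unadjusted p in edgeR was under 0.05 for 3, all higher in resveratrol, against 6.53% of all tested rows in either direction and 2.21% in the higher direction. Adjusted p was under 0.05 for 0 in edgeR (0% of all tested rows) and for 0 in DESeq2 (0.274% of rows with an adjusted p). In the leucine route all 3 genes had values above 0. OXCT1, which activates acetoacetate for use as fuel, averaged 262 ± 27.3 TPM in resveratrol and 230.5 ± 38.7 TPM in control (SD, n = 3 each), with a log2 fold change of 0.28 (SE 0.19). ACAT1, the mitochondrial acetoacetyl-CoA thiolase, averaged 106 ± 25.7 TPM in resveratrol and 89.8 ± 22.8 TPM in control (SD, n = 3 each), with a log2 fold change of 0.35 (SE 0.25). In both genes the groups overlapped and control 1 was the lowest library. In the isoleucine route 3 of 4 were above 0, and ECHS1 and HADH, which also serve fatty acid oxidation, were at 0.32 (SE 0.31) and 0.35 (SE 0.18) on the log2 fold change scale. ECHS1 was at 0.036 without control 2 and at 0.73 without control 3.

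In the valine route 2 of 3 tested genes were above 0, and ALDH6A1 and HIBCH, the semialdehyde dehydrogenase and the hydrolase before HIBADH, were at 0.14 (SE 0.18) and 0.10 (SE 0.25) on the same scale, HIBCH at -0.013 with limma on log2(TPM + 0.5). In the propionyl-CoA route, shared by isoleucine and valine, 4 of 6 were above 0. MCEE, the methylmalonyl-CoA epimerase, measured 84.6, 101.6 and 120.0 TPM in resveratrol 1, 2 and 3 and 61.7, 81.3 and 87.4 TPM in control 1, 2 and 3, with resveratrol 1 between control 2 and control 3. Its log2 fold change was 0.49 (SE 0.20) and edgeR's Benjamini-Hochberg adjusted p 0.733. Of the 4 tested control genes 3 were above 0, with log2 fold changes of 0.28 (SE 0.20) for PPARG, the adipocyte nuclear receptor, and 0.19 (SE 0.17) for CASTOR1, an arginine sensor upstream of mTORC1.

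Among genes of entry and transport 3 of 6 tested were above 0. SLC3A2, the heavy chain of the large neutral amino acid transporters, measured 109, 115 and 113 TPM in resveratrol 1, 2 and 3 and 92.0, 72.8 and 92.0 TPM in control 1, 2 and 3. SLC1A5, a neutral amino acid transporter best known for glutamine, measured 118, 159 and 128 TPM in resveratrol 1, 2 and 3 and 113, 100.3 and 98.8 TPM in control 1, 2 and 3. In 12.3% of all tested rows the groups did not overlap by TPM, in either direction. For SLC3A2 and SLC1A5 every resveratrol library was above every control library by TPM. Their log2 fold changes were 0.47 (SE 0.20) and 0.46 (SE 0.19), and edgeR's Benjamini-Hochberg adjusted p was 0.733 for each.

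Neighbouring mitochondrial pathways were set beside the 10 genes. Of 16 citric acid cycle genes 14 had an edgeR log2 fold change above 0 (48.8% of all tested rows), with a median of 0.16. Unadjusted p in edgeR was under 0.05 for 0 of them, against 6.53% of all tested rows in either direction. Control 1 was the lowest library in 14 by TPM (22.1% of all tested rows) and in 7 on the TMM-scaled counts (15.8% of all tested rows). Without control 1 the median of these genes was -0.00999. SDHC and SDHD, membrane subunits of succinate dehydrogenase and the most abundant of the list, stood at log2 fold changes of 0.16 for SDHC (SE 0.28) and 0.30 for SDHD (SE 0.24). The pyruvate and 2-oxoglutarate dehydrogenase complexes are built like the branched-chain complex, and the pyruvate complex is likewise switched by kinases and phosphatases of its own. Of 12 genes for subunits of both and for the kinases and phosphatases of the pyruvate complex, 7 were above 0, with a median of 0.0095. Without control 1, 3 of the 12 were above 0, with a median of -0.13. With limma on log2(TPM + 0.5), 4 of the 12 were above 0, with a median of -0.053. PDHA1, the counterpart of BCKDHA, and PDK4, a kinase of the pyruvate complex, stood at log2 fold changes of 0.035 for PDHA1 (SE 0.24) and 0.29 for PDK4 (SE 0.27), and PDHA1 was at -0.0105 with limma on log2(TPM + 0.5). No difference between these lists and the 10 genes was tested.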

How the data were processed

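Total RNA of subcutaneous fat was extracted with Trizol and made into libraries with a long non-coding RNA kit, per the labels' protocols. The authors deposited 1 table per library with read counts and TPM (a level scaled for gene length and library total) per gene. Bowtie 0.12.2 is named in the submitters' processing notes, which list mouse builds. Not given in the sources used here are the pig genome build, the annotation, the counting tool and the strand setting, so reads of overlapping or antisense genes may be shared, and no coordinates or sequences are printed. Gene symbols came from a table of pig gene names matched on the Ensembl identifier without its version.

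Counts were tested as deposited with edgeR 4.0.16 (robust quasi-likelihood test, TMM scaling) in R 4.3.3, over the 14908 rows that averaged 0.5 TPM or more, resveratrol over control with no covariate. Adjusted p is Benjamini-Hochberg over all these rows with a threshold of 0.05. The standard error is the log2 fold change over the square root of its F statistic, and intervals are 95%. The fit was also run on simulated counts with a common spread for all genes and larger changes than those of the genes followed here. That run does not show how well differences of their size are found. Alternatives were DESeq2 1.42.0, limma 3.58.1 on log2(TPM + 0.5) or log2(TPM + 1), other scalings and filters, a replicate block, and leaving out each library. Ratios were tested by exact permutation over the 6 libraries. Totals ran from 16251536 to 37943877 reads, and counting intervals are exact Poisson.

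The 10 genes and the other gene lists were chosen with earlier results of these data known. Beside the 10 genes and BCAT1, genes named from the pathway lists were those with an unadjusted p under 0.05 or, where a list had none, its 2 with the highest mean TPM. A table of the same TPM values for all libraries was not used. A gene of the pathway lists is not reported here and is left out of the list counts and figures, while it stayed in the fit over all rows.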

Additional observations from a re-analysis of the deposited data

How the results depend on the processing

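No member passed the adjusted threshold under any of 15 alternatives (smallest adjusted p 0.436, edgeR without control 3), and BCAT2, BCKDHA, DBT, IVD and HIBADH kept their sign under all 15. Rows called numbered 40 with DESeq2, 0 to 5 with 1 library left out (5 without control 2), 2 without control 1 and resveratrol 1 together, a choice made after seeing the data, and 0 otherwise. The median of the 10 genes ran from 0.039 to 0.43 with 1 library left out. The log2 difference of the BCKDK to PPM1K ratio ran from -0.27 to 0.17.

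Log2 fold changes that turned sign with 1 library left out ran from -0.14 to 0.49 for BCKDHB, -0.0056 to 0.18 for BCKDK, -0.039 to 0.39 for PPM1K, -0.0064 to 0.52 for MCCC1, -0.045 to 0.16 for MCCC2, -0.16 to 0.086 for DLD, -0.15 to 0.30 for HIBCH, -0.053 to 0.43 for SDHC, -0.0097 to 0.44 for PDK4 and -0.17 to 0.28 for PDHA1. With limma on log2(TPM + 0.5) and log2(TPM + 1), MCCC2 was at -0.0267 and -0.0267, HIBCH at -0.0134 and -0.0141, and PDHA1 at -0.0105 and -0.0106. DLD was at 0.040 with library totals alone and at 0.0056 with no filter. Without control 1 and resveratrol 1 together, PPM1K was at -0.12, PDHA1 at -0.091 and BCKDK at 0.20. The cause was not tested.

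Equal replicate numbers correlated at 0.157, 0.0741 and 0.2 and are not said to pair animals, although each library correlated best with its own number. The fit with a replicate block called 0 rows, with 1259 at an unadjusted p under 0.05 against 973 without the block, a members' median of 0.21 and an unadjusted p of 0.0125 for IVD in edgeR.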

Other observations

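Among the other pathway genes, the values below were picked out after they were seen. ABAT, the 4-aminobutyrate aminotransferase that also takes part in valine breakdown, measured 1.699, 1.502 and 0.879 TPM in resveratrol 1, 2 and 3 and 2.10, 1.98 and 1.73 TPM in control 1, 2 and 3. SESN2, a leucine sensor upstream of mTORC1, measured 1.05, 1.57 and 1.67 TPM in resveratrol 1, 2 and 3 and 1.74, 2.67 and 2.17 TPM in control 1, 2 and 3. In both genes every resveratrol library was below every control library by TPM, while on the TMM-scaled counts the groups overlapped. By TPM the groups did not overlap in 12.3% of all tested rows, in either direction. The log2 fold changes were -0.45 for ABAT and -0.50 for SESN2, with Benjamini-Hochberg adjusted p of 0.745 and 0.733 in edgeR.

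SLC7A8, a light chain that pairs with SLC3A2 to carry large neutral amino acids, lay below the filter at 0.305, 0.370 and 0.242 TPM in resveratrol 1, 2 and 3 and 0.737, 0.703 and 0.626 TPM in control 1, 2 and 3. It rested on 23 to 57 reads per library. In the fit with no filter its log2 fold change was -1.08 (SE 0.39), lower in 3 of 3 resveratrol libraries, and edgeR's Benjamini-Hochberg adjusted p was 0.805. SLC3A2, its heavy chain, lay the other way, above control in 3 of 3 resveratrol libraries.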
